A study of Mus musculus with 9 samples.

Results

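The 10 genes described here encode GTPases that interferon-gamma induces: the guanylate-binding proteins Gbp2, Gbp3, Gbp4, Gbp5 and Gbp7, and the immunity-related GTPases Irgm1, Irgm2, Igtp (also called Irgm3), Iigp1 (also called Irga6) and Tgtp2. They were chosen by gene symbol from the 54532 genes of the FPKM table, and all 10 were also among the 9877 genes of the count table. Their poly-A RNA was measured by RNA sequencing in 9 libraries of sorted M-MDSCs, the monocytic kind of myeloid-derived suppressor cell, known for restraining T cells, taken from mice bearing MC38 tumours (MC38 is a colon carcinoma line of the mouse). The 3 groups of 3 libraries were WT, LILRB4+/+ (called LILRB4 below) and LILRB4+/+ SCG2-/- (called SCG2 knockout below), so the LILRB4+/+ genotype was shared by both non-WT groups and all mice carried the tumour. The study asked how LILRB4, an inhibitory receptor of myeloid cells, and the secreted protein SCG2 act together in these cells. The nature of the LILRB4+/+ allele, the sort gate, the strain and age of the mice and the mouse behind each library are not stated in the labels. A p-value here therefore measures only how far the samples spread, and that spread may be technical.

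Interferon-gamma, made mainly by T and NK cells, binds its receptor on myeloid cells, and the receptor signals through the kinases JAK1 and JAK2. Its signal acts on genes through GAS elements and, by way of the induced factor IRF1, through ISRE elements, and many of the GTPase genes carry both kinds of element. Guanylate-binding proteins coat pathogen vacuoles and cytosolic bacteria and promote inflammasome activation. Among the immunity-related GTPases, the regulatory IRGM proteins sit on the cell's own membranes and hold the effector IRG proteins, such as Iigp1 and Tgtp2, in their inactive state until these load onto a pathogen vacuole.

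Sequences around the start sites are shown because interferon-gamma acts on genes through these elements. The members were chosen by name as genes that interferon-gamma induces, so how often they carry the elements is not independent of that choice. RefSeq promoter windows on GRCm38.p6, from 250 bases before to 50 after the start, were found for 8 members: Gbp2, Gbp3, Gbp5, Gbp7, Irgm1, Irgm2, Igtp and Tgtp2. In the lines that follow, read 5′ to 3′ on the gene's strand, capitals mark matches to GAS, searched as TTCNNNGAA, or to ISRE, searched as GAAANNGAAA, on both strands, so that an ISRE on the opposite strand reads TTTCNNTTTC. The search was for both motifs in the whole window, and only the stretch nearest the start is printed. Positions are given with what the GENCODE M21 annotation has there.
Irgm2, chr11:58214896-58214928, plus strand, in an intron: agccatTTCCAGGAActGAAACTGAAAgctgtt
Igtp, chr11:58199505-58199537, plus strand, upstream of the gene: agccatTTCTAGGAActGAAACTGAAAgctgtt
Tgtp2, chr11:49064267-49064299, minus strand, upstream of the gene: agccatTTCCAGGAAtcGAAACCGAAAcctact
Tgtp1, chr11:48992308-48992340, minus strand, in an intron: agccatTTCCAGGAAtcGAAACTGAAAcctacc
Irgm1, chr11:48871429-48871456, minus strand, in an exon: tttcaaGAAATAGAAACCGAAActgatt
Gbp2, chr3:142620598-142620619, plus strand, partly in an exon: ttttagTTTCACTTTCactgtc
Gbp3, chr3:142559993-142560020, plus strand, upstream of the gene: acacagTTTCAGTTTCTATTTCccagat
Gbp5, chr3:142496876-142496896, plus strand, in an intron: cgttatTTCTCAGAAccaagc
Gbp7, chr3:142530224-142530298, plus strand, upstream of the gene: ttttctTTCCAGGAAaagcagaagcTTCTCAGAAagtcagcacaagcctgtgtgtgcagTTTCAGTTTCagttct

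An ISRE match was present in all 8 members with a window, against 3.44% of the 32851 windows of the table. A GAS match was present in 5 of the 9 windows (those of Gbp5, Gbp7, Irgm2, Igtp and Tgtp2), against 8.30% of windows. The same 5 windows held both motifs, against 0.454%. In Irgm2, Igtp and Tgtp2 the GAS match lay before the ISRE match with 2 bases between them, in the same orientation and with the same 6 bases before it. This layout was found in 5 windows of the table (0.0152%), and the other two belonged to Tgtp1, the near-identical neighbour of Tgtp2, and to Gm12185. In Gbp5 the printed GAS match lay 52 bases before the start, with a further GAS match at 245 and the ISRE match at 165. Irgm1 and Gbp3 each held a pair of overlapping ISRE matches, beginning 30 and 24 bases before the start in Irgm1 and 45 and 39 in Gbp3, and the single ISRE match of Gbp2 began 59 bases before the start. A match is a run of letters, and binding was not measured.

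The members sit in clusters of related genes, and 9 of the 10 had table coordinates that match GENCODE M21 on GRCm38 at both ends. Gbp5 (chr3:142493978-142522344), Gbp7 (chr3:142530342-142550149), Gbp3 (chr3:142560026-142573209) and Gbp2 (chr3:142620602-142638008) lie side by side on the plus strand of chromosome 3. Gbp4 (chr5:105115767-105139586, minus strand) lies apart from them, in the chromosome 5 cluster. On chromosome 11 are Irgm1 (chr11:48861968-48871683, minus strand), Tgtp2 (chr11:49057194-49064206, minus strand), Igtp (chr11:58199556-58207591, plus strand) and Irgm2 (chr11:58199618-58222782, plus strand), while Iigp1 is on chromosome 18. Irgm2 and Igtp overlap on the same strand and share 162 exon bases (8.01% of those of Igtp), so a small part of their reads cannot be assigned to one of them. Gbp7 shares 637 exon bases (11.3% of its own) with Gm43802 on the same strand, and Gbp4 shares 61 with Gbp8 and 60 with Gbp9. The longest open reading frame of Tgtp2 is 99.7% identical to that of Tgtp1, and that of Gbp4 is 92.3% identical to that of Gbp11, so the split of reads between the genes of each pair is uncertain.

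Over the 9 libraries, the counted reads per library numbered from 14501163 to 27219202, and the members had from 127 counts (Tgtp2 in 1 library) to 8986 (Gbp2 in 1 library). Scg2 itself had 2 reads over all 9 libraries, 1 in WT and 1 in LILRB4, so the knockout label could not be checked at this depth. Lilrb4a, the mouse gene for the receptor, averaged 457 ± 248 CPM (counts scaled to a common library total) for WT, 1022 ± 340 for LILRB4 and 769 ± 67.5 for SCG2 knockout (SD, n = 3, as for the other group means). All 10 monocyte markers were detected, with a summed level of 2351 to 6889 CPM. All 22 markers of T and NK cells were detected too, at 195 to 1299 CPM in sum. This sum was lowest in WT replicates 2 and 3 and LILRB4 replicate 2. All 5 fibroblast markers were detected, at 1540 to 2720 CPM in sum. In SCG2 knockout replicate 3 the fibroblast sum (2720 CPM) exceeded the monocyte sum (2351 CPM). All neutrophil (61.3 to 234 CPM in sum), macrophage (679 to 1936) and dendritic cell markers (77.4 to 334) were detected. Endothelial (29.6 to 87.4) and B cell markers (1.41 to 15.1) all were as well. Of the 5 carcinoma markers 4 were detected, and the 5 summed to 80.9 to 203 CPM. On the recovered counts, 9 of the 10 monocyte markers had log2 fold changes below 0 from LILRB4 to SCG2 knockout (median -0.64). The remaining monocyte marker was at 4.97. All 7 neutrophil markers tested (median -1.28) and all 7 macrophage markers (-0.41) were below 0. So were all 4 B cell (-1.26) and all 4 endothelial markers (-0.36), against 7393 of all 15743 genes. All 5 fibroblast markers (0.43) and 19 of the 22 T and NK cell markers (0.42) were above 0. From WT to LILRB4 all 7 neutrophil markers were above 0 (median 0.55), as were all 6 dendritic cell markers, of which edgeR called 1, Xcr1. All 22 T and NK cell (median 1.06), 4 B cell (2.07) and 4 endothelial markers (0.76) were above 0 too, against 7835 of all 15743 genes. The 5 fibroblast markers were all below 0 (median -0.26). Monocyte markers were split, 6 above and 4 below 0 (median 0.14), as were macrophage markers, 4 above and 3 below (0.075). On the deposited counts the lowest monocyte marker (-2.11) had the lowest value of all 9877 genes, and edgeR did not call it. The part of these shifts in the members' levels was not tested. In such bulk libraries, fewer cells of a type and less RNA per cell cannot be told apart.

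Per unit of gene length, Gbp2 was the most abundant member in every library, from 57.3 to 148 FPKM (fragments scaled to gene length and library size), with a mean of 87.6. Igtp followed with a mean of 29.9 FPKM (20.3 to 47.8) and Gbp3 with 21.9 (17.5 to 27.9), and the ranges of these 2 genes overlapped. Gbp5 (mean 10.6 FPKM), Iigp1 (9.71), Irgm1 (8.88), Gbp4 (8.87) and Gbp7 (8.17) formed a middle group whose ranges overlapped one another. Irgm2 (6.06 FPKM) and Tgtp2 (4.82) were the least abundant, with ranges of 3.89 to 9.41 and 2.36 to 7.90. Transcripts of all 10 GTPases were thus counted in every library of all 3 genotypes.

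**Figure D1:**
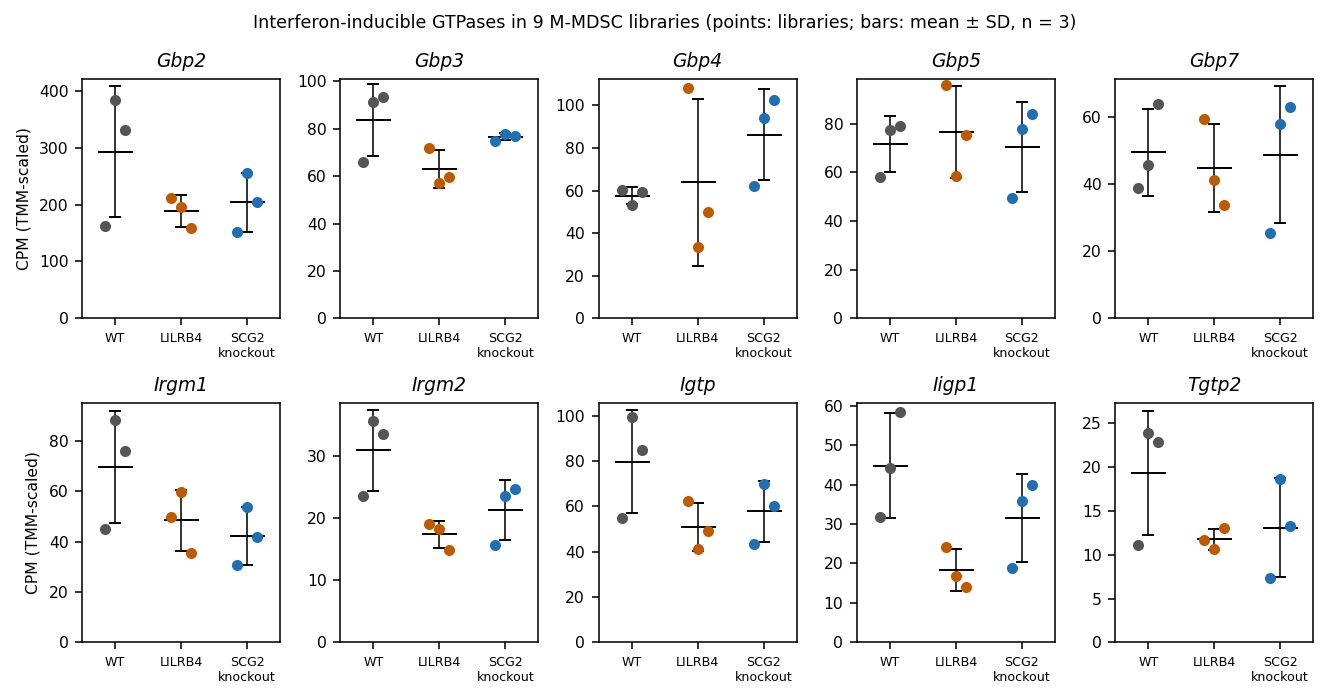
CPM of each of the 10 members in each of the 9 libraries, by group, with the group mean and SD (n = 3). LILRB4 points lie below all WT points for Irgm2 and Iigp1, while WT replicate 1 falls among the LILRB4 points for Irgm1, Igtp and Tgtp2.

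The immunity-related GTPases, taken first, had lower mean levels in LILRB4 than in WT libraries, with the widest gap in the effector Iigp1, and none passed the edgeR test. Iigp1, a GTPase that oligomerises on pathogen vacuoles, stood at 31.7, 44.2 and 58.4 CPM for WT replicates 1 to 3, 24.2, 16.7 and 14.0 for LILRB4 and 18.8, 35.8 and 39.8 for SCG2 knockout. All 3 LILRB4 libraries lay below all 3 WT libraries, and the SCG2 knockout libraries overlapped both groups. From WT to LILRB4 the log2 fold change of Iigp1 was -1.29 (SE 0.32, 95% interval -2.00 to -0.58), 0.408 of the WT level. Its adjusted p of 0.0611 missed the threshold of 0.05 (edgeR quasi-likelihood test with Benjamini-Hochberg adjustment over all genes). From LILRB4 to SCG2 knockout Iigp1 differed by 0.78 (SE 0.32, 95% interval 0.07 to 1.49, edgeR adjusted p = 0.413). Its call depended on the method: DESeq2 called Iigp1 lower in LILRB4 than in WT (adjusted p = 0.00363), and so did edgeR without SCG2 knockout replicate 1 (log2 fold change -1.28, adjusted p = 0.0403).

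Tgtp2, the other effector, had 11.1, 23.9 and 22.8 CPM for WT, 11.7, 10.6 and 13 for LILRB4 and 7.33, 18.6 and 13.2 for SCG2 knockout. WT replicates 2 and 3 were the 2 highest of the 9, but WT replicate 1 lay inside the LILRB4 range. Tgtp2 differed from WT to LILRB4 by a log2 fold change of -0.71 (edgeR adjusted p = 0.250, SE 0.35). Its neighbour Tgtp1, at 9.43, 14.5 and 17.8 CPM for WT and 8.87, 4.98 and 7.0 for LILRB4, differed by -1.01 on the log2 scale (SE 0.43, edgeR adjusted p = 0.199).

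Irgm2, a regulatory IRGM protein, stood at 23.5, 35.7 and 33.5 CPM for WT, 19.0, 18.3 and 14.9 for LILRB4 and 15.7, 23.5 and 24.7 for SCG2 knockout. Here too the LILRB4 libraries lay wholly below the WT libraries. Irgm2 differed from WT to LILRB4 by -0.83 on the log2 scale (SE 0.22, 95% interval -1.31 to -0.35, edgeR adjusted p = 0.0694), 0.563 of the WT level, and DESeq2 called it (adjusted p = 0.0199). Between SCG2 knockout and LILRB4 Irgm2 differed by 0.29 (95% interval -0.19 to 0.77), and between SCG2 knockout and WT by -0.54 (95% interval -1.02 to -0.06, edgeR adjusted p = 0.330).

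Igtp, the regulatory member whose gene overlaps Irgm2, had 54.7, 99.4 and 84.9 CPM for WT, 62.4, 41.1 and 49.2 for LILRB4 and 43.3, 69.7 and 60.4 for SCG2 knockout. WT replicate 1 lay below LILRB4 replicate 1, so the groups overlapped, and the log2 fold change of Igtp was -0.65 (SE 0.25, edgeR adjusted p = 0.160). Irgm1, the regulatory member also linked to autophagy and to the health of mitochondria, had 45.1, 88.2 and 75.9 CPM for WT, 49.9, 59.8 and 35.4 for LILRB4 and 30.6, 53.6 and 41.9 for SCG2 knockout. Among the 3 groups Irgm1 was lowest on average in SCG2 knockout (42.0 ± 11.5 CPM against 69.8 ± 22.2 in WT), and differed from WT by -0.73 on the log2 scale (SE 0.29, edgeR adjusted p = 0.330).

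The guanylate-binding proteins were less uniform. Gbp2 had 163, 384 and 331 CPM for WT, 212, 196 and 158 for LILRB4 and 152, 256 and 205 for SCG2 knockout. WT replicates 2 and 3 again stood above all other libraries, and WT replicate 1 was among the lowest. On the log2 scale Gbp2 differed by -0.64 from WT to LILRB4 (SE 0.30, edgeR adjusted p = 0.233) and by -0.52 from WT to SCG2 knockout (SE 0.30, edgeR adjusted p = 0.412). Without WT replicate 2 these differences were -0.37 and -0.28.

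Gbp3 varied least, with 66.1, 91.4 and 93.5 CPM for WT, 71.9, 56.9 and 59.6 for LILRB4 and 75.0, 77.7 and 77.1 for SCG2 knockout. The SCG2 knockout libraries of Gbp3 lay within 3 CPM of one another and above all LILRB4 libraries, a difference of 0.29 on the log2 scale (SE 0.16, edgeR adjusted p = 0.532). From WT to LILRB4 Gbp3 differed by -0.41 (SE 0.16, edgeR adjusted p = 0.164).

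Gbp5, which is known to promote NLRP3 inflammasome assembly, and Gbp7, which supports the phagocyte oxidase, had similar means in the 3 groups. Gbp5 stood at 58.2, 77.4 and 79.2 CPM for WT, 96.1, 58.6 and 75.3 for LILRB4 and 49.4, 78.0 and 84.0 for SCG2 knockout. Gbp7 stood at 38.7, 45.7 and 63.8 CPM for WT, 59.4, 41.2 and 33.8 for LILRB4 and 25.3, 57.8 and 62.9 for SCG2 knockout. The 3 groups overlapped for both genes. The log2 fold change from WT to LILRB4 was 0.10 for Gbp5 (95% interval -0.42 to 0.61) and -0.14 for Gbp7 (95% interval -0.90 to 0.61), so that for Gbp7 a change the size of that of Irgm2 lies inside the interval and for Gbp5 it does not.

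Gbp4, the chromosome 5 member, had its lowest mean in WT, with 60.3, 53.2 and 59.4 CPM for WT, 108, 33.7 and 50.1 for LILRB4 and 62.0, 93.9 and 103 for SCG2 knockout. LILRB4 held both the highest and the lowest library of the 9. All 3 SCG2 knockout libraries lay above all 3 WT libraries, and the fitted difference was 0.58 on the log2 scale (SE 0.37, edgeR adjusted p = 0.460). From WT to LILRB4 Gbp4 differed by 0.15 (SE 0.37), and by -0.44 without LILRB4 replicate 1.

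**Figure D2:**
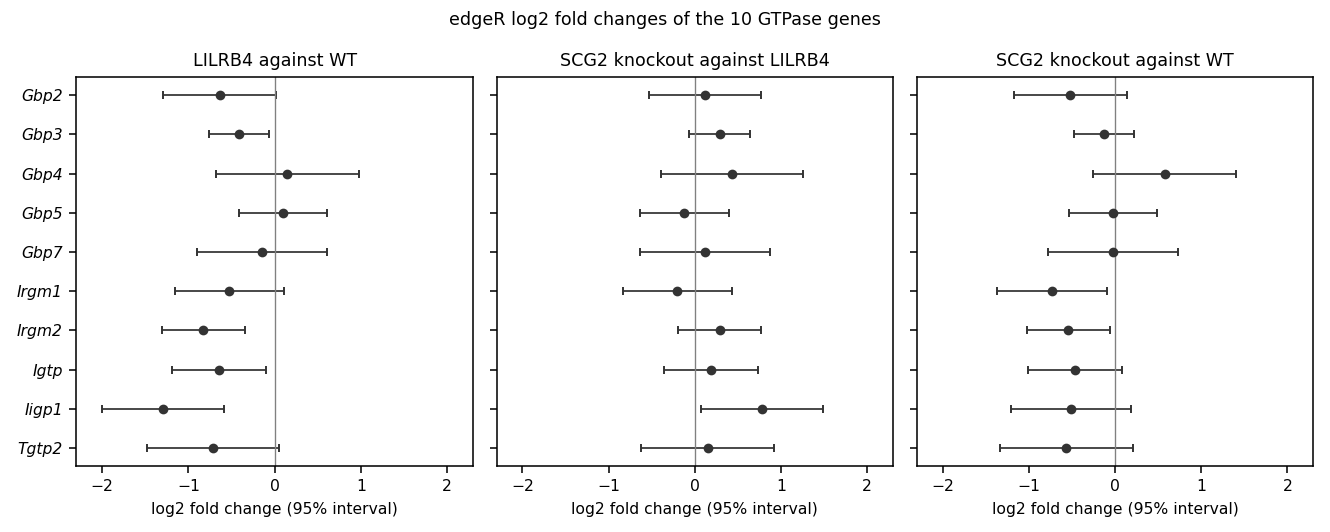
Log2 fold change of each member in the 3 comparisons (points) with its 95% interval (bars) from the edgeR fit; the vertical line is 0. The 5 immunity-related GTPases and Gbp2 and Gbp3 lie below 0 from WT to LILRB4, and Gbp4, Gbp5 and Gbp7 lie near 0.

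Counted together, none of the 10 members was called in LILRB4 against WT by edgeR at an adjusted p under 0.05, where 2.25% of the 9877 genes tested were called (1.73% higher and 0.516% lower). Before adjustment, 4 members had a lower level with p under 0.05 (Gbp3, Irgm2, Igtp and Iigp1) and 0 a higher one, against 11.3% of all genes in each direction. DESeq2 called 2 of the 10, Iigp1 and Irgm2, both lower, against 3.16% of genes. The count table held only genes counted at least 100 times in LILRB4 replicates 1 and 3. Genes low in those libraries are thus missing from these shares. Without SCG2 knockout replicate 1, edgeR called Iigp1 lower, against 0.294% of genes. The log2 fold change was below 0 for 8 members, against 52.0% of all genes, and its median was -0.58 over the members and -0.02 over all genes. By role, the median was -0.14 over the 5 guanylate-binding proteins, of which 3 were below 0, -0.65 over the 3 regulatory IRGM genes and -1.0 over the 2 effectors, and those 5 genes were all below 0. Libraries did not overlap for 2 members, Irgm2 and Iigp1, both lower in LILRB4, against 15.5% of genes with all LILRB4 libraries below all WT libraries. Whether guanylate-binding proteins and immunity-related GTPases differ in their response was not tested.

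In SCG2 knockout against LILRB4, edgeR called 0 of the 10 members and 0.00% of all genes. DESeq2 called 0 members too (it gave Tgtp2 no adjusted p), against 2.53% of genes. Iigp1 was the 1 member with a higher level at an unadjusted p under 0.05, against 4.88% of genes. Log2 fold changes were above 0 for 8 members, against 55.6% of genes, with a median of 0.17 against 0.03 over all genes. Without SCG2 knockout replicate 2 the members' median was 0.0029, with 5 of 10 below 0, and without SCG2 knockout replicate 1 it was 0.37. Without LILRB4 replicate 1 it was 0.32, without LILRB4 replicate 2 it was 0.10 and without SCG2 knockout replicate 3 it was 0.11. With all 9 libraries, Gbp5 (-0.12) and Irgm1 (-0.20) were the members below 0, and edgeR adjusted p-values of the members ran from 0.413 (Iigp1) to 0.929 (Gbp7). Gbp3 was the 1 member with all SCG2 knockout libraries above all LILRB4 libraries, against 9.86% of genes.

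In SCG2 knockout against WT, edgeR again called 0 of the 10 members and 0.00% of all genes, and DESeq2 called 0 members, against 0.932% of genes. Irgm1 and Irgm2 had an unadjusted p under 0.05 in edgeR, both lower, against 6.11% of genes. Log2 fold changes were below 0 for 9 members, all but Gbp4, against 49.6% of genes, with a median of -0.49 against 0.00 over all genes. Without SCG2 knockout replicate 1 that median was -0.27, with 7 below 0, and without WT replicate 2 it was -0.28. Gbp4 was the 1 member whose SCG2 knockout libraries all lay on 1 side of WT, above it, against 23.4% of genes on either side. The 3 comparisons share libraries pairwise, so these counts are not independent of one another.

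The members varied widely within groups. Averaged over the 10 members, log2 CPM relative to each gene's mean was -0.16, 0.46 and 0.49 for WT, 0.08, -0.36 and -0.40 for LILRB4 and -0.51, 0.24 and 0.16 for SCG2 knockout. In each group 1 library stood apart from its other two: WT replicate 1 and SCG2 knockout replicate 1 were low and LILRB4 replicate 1 was high. In LILRB4 replicate 1 the guanylate-binding proteins averaged 0.29 and the regulatory IRGM genes -0.07. Without WT replicate 2 the members' median log2 fold change from WT to LILRB4 was -0.35, and without WT replicate 1 it was -0.81.

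**Figure D3:**
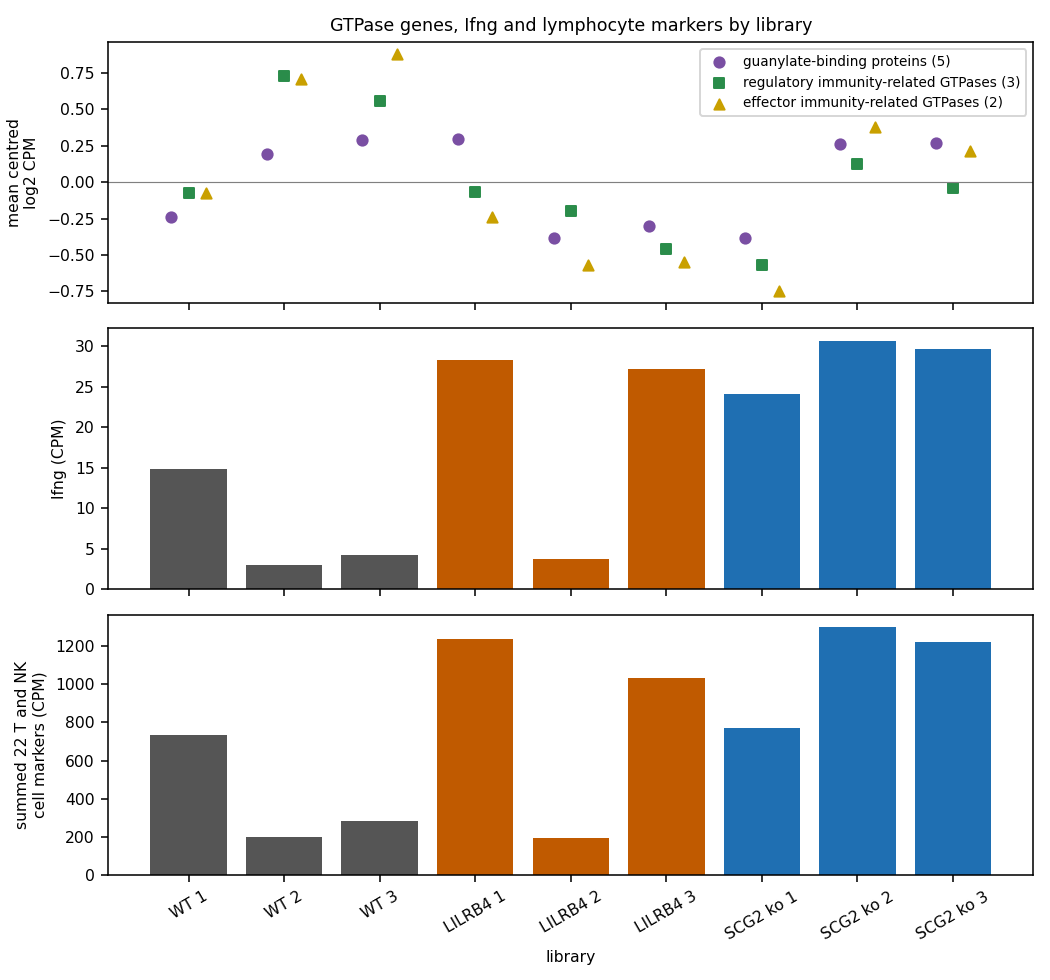
Mean log2 CPM relative to each gene's own mean, over the 5 guanylate-binding proteins, the 3 regulatory and the 2 effector immunity-related GTPases, in each of the 9 libraries, above bars of Ifng and of the summed 22 T and NK cell markers in CPM. SCG2 knockout replicate 1 is the lowest library for all 3 roles, and WT replicates 2 and 3 are the highest for both IRG roles.

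Levels of the immunity-related GTPases varied together over the 9 libraries. Pearson's r of log2 CPM, given as a description over 9 libraries that differ in depth and in lymphocyte markers, was 0.64 to 0.94 for the 10 pairs of immunity-related GTPases, with a median of 0.83. The highest value was that of Irgm2 with Iigp1. The 10 pairs of guanylate-binding proteins spread from 0.06 to 0.81 with a median of 0.52. Gbp2 resembled the immunity-related GTPases (0.77 to 0.91 with the 5 of them), and Gbp4 did not (-0.20 to 0.37).

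**Figure D4:**
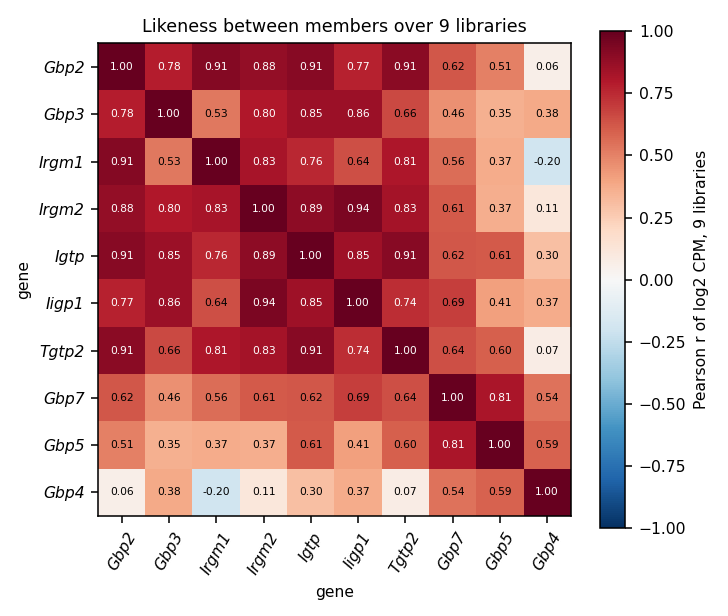
Pearson's r between log2 CPM of each pair of members over the 9 libraries, coloured from low to high and printed in each cell. The immunity-related GTPases and Gbp2 form a block of high values, and the row of Gbp4 is the palest.

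Outside the GTPase families, the genes whose level was most like the members' mean were ranked by Pearson's r over the same 9 libraries among 9145 genes. Among the 10 highest were Haus2 (0.95), Kat7 (0.95), Smarcad1 (0.92), Cse1l (0.91), Tap1 (0.91), Batf2 (0.90), C1ra (0.89), Mmgt1 (0.88) and Phf13 (0.88). Tap1, a subunit of the peptide transporter for MHC class I, and Batf2, a transcription factor, are themselves interferon-gamma targets. Cxcl9, a chemokine induced by interferon-gamma, ranked 37 (0.79). Other targets did not share the pattern, with r of -0.51 for Acod1, -0.34 for Gch1, -0.32 for Cd40, -0.29 for Icam1 and -0.01 for Cd274.

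The upstream pathway was read at the level of ligand, kinases and transcription factors. Ifng, the ligand, stood at 14.9, 2.95 and 4.19 CPM for WT, 28.3, 3.77 and 27.2 for LILRB4 and 24.1, 30.7 and 29.7 for SCG2 knockout. The markers of T and NK cells, summed, were low in the same 3 libraries, with 733, 200 and 286 CPM for WT, 1236, 195 and 1029 for LILRB4 and 770, 1299 and 1221 for SCG2 knockout. WT replicates 2 and 3, the libraries with the highest mean of the members, were 2 of the 3 lowest for Ifng and the lymphocyte markers. LILRB4 replicate 2, the third, had a low mean of the members (-0.36). Over the 9 libraries, Pearson's r of Ifng with the members' mean was -0.34. The part of lymphocyte content in the members' levels was not tested. From WT to LILRB4 the log2 fold change of Ifng was 1.43 (SE 0.79, edgeR adjusted p = 0.314), opposite in sign to the immunity-related GTPases.

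Irf1 averaged 440 ± 47.0 CPM for WT, 383 ± 32.8 for LILRB4 and 465 ± 6.01 for SCG2 knockout. All SCG2 knockout libraries (470, 458 and 466 CPM) lay above all LILRB4 libraries (394, 346 and 409), against 9.86% of genes. WT (396, 490 and 434 CPM) overlapped both groups. Of the 17 pathway genes, 2 rose from WT to LILRB4 in the count table: Jak2, a receptor kinase, by 0.91 (edgeR adjusted p = 0.0495), and Socs3, a feedback inhibitor of cytokine receptors that signal through JAK kinases, by 1.13 (edgeR adjusted p = 0.0467). Jak2 had 251, 244 and 272 CPM for WT and 612, 365 and 459 for LILRB4. Both calls were lost over the 15743 genes of the counts recovered from FPKM (adjusted p = 0.0590 for Jak2 and 0.0574 for Socs3, edgeR). DESeq2 called the same pair, Jak2 and Socs3. Over all genes of the count table, edgeR called 1.73% higher and DESeq2 6.20%. Before adjustment, p was under 0.05 in edgeR for 4 pathway genes above and 1 below WT, against 11.3% of all genes each way. In SCG2 knockout against LILRB4, edgeR and DESeq2 called 0 of the pathway genes, and 0 had an unadjusted p under 0.05 in edgeR. In SCG2 knockout against WT both tools called 0, and 6 genes were above and 2 below WT with an unadjusted p under 0.05 in edgeR, against 8.47% and 6.11% of all genes.

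Other interferon-gamma targets did not share 1 direction. Of 30 tested, 1 rose from WT to LILRB4, Acod1, which makes itaconate, by 1.54 (SE 0.28, edgeR adjusted p = 0.0277), and 0 fell. The shares over all genes were 1.73% and 0.516%. DESeq2, in contrast, called 4 higher and 1 lower, Psmb9, against 6.20% and 3.16% of all genes. The 9 antigen presentation genes had log2 fold changes below 0, with a median of -0.22, and edgeR called 0 of them. Psmb9, the immunoproteasome subunit that DESeq2 called, was at -0.60 (edgeR adjusted p = 0.0709). Of the 10 immune regulators 8 were above 0, with a median of 0.47, among them Cd274, which encodes PD-L1, at 1.01 (edgeR adjusted p = 0.0609). None of the 23 type I interferon-stimulated genes tested passed in any comparison in edgeR. Their median log2 fold change was -0.23 from WT to LILRB4 (unadjusted p under 0.05 for 5 above and 5 below 0, against 11.3% of all genes each way). It was -0.38 from LILRB4 to SCG2 knockout (0 and 7, against 4.88% and 6.18% of all genes). From WT to SCG2 knockout it was -0.40 (0 and 11, against 8.47% and 6.11%). DESeq2 called 4 of 23 higher and 0 lower from WT to LILRB4, against 6.20% and 3.16% of genes. From LILRB4 to SCG2 knockout it called 3 lower of the 14 it gave an adjusted p, against 2.37% of genes, and from WT to SCG2 knockout 5 lower of 23, against 0.233%.

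Further genes of both GTPase families were read the same way. Of 17 such genes, 16 could be tested on the recovered counts, and 0 were called by edgeR in LILRB4 against WT, where 0.870% of the 15743 genes were called. Before adjustment, p was under 0.05 for 4 that were lower (Tgtp1, Gm12250, Gm4841 and Gm4951, all immunity-related GTPases) and 1 that was higher (Gbp11), against 8.53% and 10.3% of the 15743 genes. Gm12250, which encodes the effector Irgb10, had 6.40, 9.08 and 11.7 CPM for WT, 3.96, 4.58 and 3.54 for LILRB4 and 4.88, 5.11 and 4.36 for SCG2 knockout, with all LILRB4 libraries below all WT libraries. Its log2 fold change from WT to LILRB4 was -1.17 (SE 0.26, edgeR adjusted p = 0.0602), and Gm4841 (-1.27, adjusted p = 0.107) and Gm4951 (-1.09, adjusted p = 0.119) had values of the same sign in edgeR. Gm4951 is 86.1% identical to Iigp1 in its longest open reading frame, so the split of reads between them is uncertain. Of the chromosome 5 neighbours of Gbp4, Gbp8 was at 0.19 and Gbp9 at 0.41 from WT to LILRB4, and Gbp6 at -0.18, with adjusted p-values of 0.722, 0.296 and 0.741 (edgeR).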

How the data were processed

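RNA of 9 M-MDSC libraries was sequenced strand-specifically, per the labels' protocols. HISAT2 2.0.5 and featureCounts 1.5.0-p3 are named in the submitters' processing notes; build, annotation and strand setting: not given in the sources used here. The authors deposited raw counts for 9877 genes and FPKM for 54532. The count table was limited to genes counted at least 100 times in both LILRB4 replicate 1 and LILRB4 replicate 3. FPKM times gene length gave whole counts for 100% of values (tolerance 0.01). These recovered counts equalled the deposited counts for all 10 members. They differed from the deposited counts in 56 values of 47 genes. Among those were genes of the pathway, target and marker lists: Jak1, Nos2, Ifitm3, Ly6c2, Cd14, S100a8, Mmp8 and Mmp9.

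The deposited counts of all 9 libraries were fitted together with edgeR 4.0.16 (R 4.3.3; TMM scaling, filterByExpr minimum count 10, robust quasi-likelihood test, 6 residual degrees of freedom), with Benjamini-Hochberg adjustment over all genes and a threshold of 0.05. The procedure was tested on simulated counts drawn independently for each gene and library, so shifts shared by many genes of a library were not covered. CPM were computed from the counts with TMM-scaled library sizes. Genes outside the count table were fitted from recovered counts. Alternatives were DESeq2 1.42.0, limma 3.58.1 on log2(FPKM + 1) or log2(FPKM + 0.1), other scaling, filters, blocks and left-out libraries. SE and 95% intervals follow from the edgeR test statistic. Motifs were searched in RefSeq windows.

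The members and lists were chosen with earlier results of these data known. All members are named, and any gene of the pathway and further GTPase lists may be; of other lists, genes past the threshold or the 3 of smallest p. The genes most like the members are the 10 of highest Pearson's r with the members' mean centred log2 CPM (prior count 2) among genes of at least 10 mean CPM. Some genes these rules would name are not reported here.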

Additional observations from a re-analysis of the deposited data

How the results depend on the processing

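DESeq2 called 2 members in LILRB4 against WT instead of 0, and leaving out 1 library gave 0 to 1 (Iigp1, without SCG2 knockout replicate 1); in the other 2 comparisons the count stayed at 0 in each alternative run. Of 540 refitted log2 fold changes of single members, 517 kept direction and side of the threshold, 3 passed it newly and 20 changed sign. With limma on log2(FPKM + 0.1), Gbp7 (-0.0049) and Tgtp2 (-0.00025) changed sign in SCG2 knockout against LILRB4. Leaving out 1 library turned values near 0: in LILRB4 against WT, Gbp4 ranged from -0.44 to 0.46, Gbp5 from -0.073 to 0.26 and Gbp7 from -0.37 to 0.084. In SCG2 knockout against LILRB4, Gbp2 ranged from -0.078 to 0.27, Gbp5 from -0.30 to 0.057, Gbp7 from -0.14 to 0.41 and Tgtp2 from -0.20 to 0.41. In SCG2 knockout against WT, Gbp5 ranged from -0.18 to 0.17 and Gbp7 from -0.27 to 0.28. In LILRB4 against WT, Iigp1 ranged from -1.51 to -1.06, Irgm2 from -0.99 to -0.69 and Gbp2 from -0.92 to -0.37, and in SCG2 knockout against WT Gbp2 ranged from -0.81 to -0.28. The cause of these shifts was not tested. Over all genes, LILRB4 against WT gave 171 higher and 51 lower calls in edgeR, 128 and 9 with recovered counts, 187 and 38 with DESeq2 size factors, 612 and 312 with DESeq2, 91 and 11 with limma (0 and 0 without a filter), and 69 and 3 with the 2 groups alone. It gave 0 without WT replicate 2 or WT replicate 3, and 541 and 148 without LILRB4 replicate 2. DESeq2 also called 12 higher and 175 lower genes in SCG2 knockout against LILRB4, and 69 and 23 in SCG2 knockout against WT.

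Same-numbered libraries of different groups did not deviate from their group means in 1 way. For replicates 1 to 3, r was 0.66, 0.54 and -0.45 between WT and LILRB4. It was -0.29, -0.13 and 0.41 between WT and SCG2 knockout, and -0.54, -0.30 and -0.18 between LILRB4 and SCG2 knockout. The labels do not say whether the numbers pair samples, and with 3 libraries per group these values cannot decide it. With a replicate block, 0 members were called in each comparison, the members' median log2 fold changes were -0.52, 0.10 and -0.47, and the calls over all genes in LILRB4 against WT were 1 higher and 0 lower.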
